A study of Mus musculus with 4 samples.

Results

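Genes of L- and D-lactate dehydrogenase (Ldha, Ldhb, Ldhc and Ldhd) were followed in insulin-positive cells made from mouse gallbladder. Beside them stood 4 genes of proton-coupled monocarboxylate transporters that carry lactate and pyruvate across membranes (Slc16a1, Slc16a3, Slc16a7 and Slc16a8). The members were the rows of the expression table with these symbols, and all 8 were found among 20377 genes. The 4 libraries, replicates 1 to 4, form 1 group called rGBC2. Primary gallbladder cells were isolated from mice of 8 weeks on the C57BL/6 background of the MIP-GFP strain, B6.Cg-Tg(Ins1-EGFP)1Hara/J, in which an Ins1 promoter drives green fluorescent protein. Every library came from cells that received Pdx1, Ngn3, Mafa and PAX6 and compounds not named in the labels over 10 days, and that were then sorted for the reporter, so no untreated or native beta-cell library was compared. Since Ins1 promoter activity selected the cells, the values describe the sorted fraction, and each library pools many cells.

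Lactate dehydrogenase converts pyruvate to lactate and back, using NADH, and works as a tetramer of A and B subunits. The A subunit, from Ldha, prevails in tissues that release lactate, and the B subunit, from Ldhb, in heart and other oxidative tissues. Monocarboxylate transporters need a single-pass membrane partner, basigin (Bsg) or embigin (Emb), to reach the cell surface. Mature beta cells are known for keeping Ldha and Slc16a1, which encodes MCT1, almost silent, so that pyruvate from glucose enters mitochondria and circulating lactate or pyruvate does not trigger insulin release.

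The libraries did not differ evenly. Estimated depth was 22.2 to 32.9 M reads. Replicates 3 and 4 differed from each other by a median of 0.10 on the log2(RPKM + 1) scale over genes with a mean of at least 1 RPKM, against 0.29 to 0.46 for the other 5 pairs of libraries, although by more than sampling noise (median chi-square of 2.45 per gene). Replicates 1 and 2 held transcripts of the Y-linked genes Eif2s3y (48.5 and 44.7 RPKM), Ddx3y (26.85 and 38.16 RPKM) and Kdm5d (8.16 and 9.21 RPKM). All of them were listed at 0 in replicates 3 and 4, so these pairs of libraries differed in their source cells. Across 11839 genes, the difference of replicates 3 and 4 from 1 and 2 correlated with the GC content of the transcript (Spearman 0.571). The same difference correlated with transcript length (Spearman -0.251). Both values are descriptions across genes that are not independent. Of all genes tested, 24.2% were higher in both of replicates 3 and 4 than in both of the others, and 38.5% were lower. No label ties a library to an animal or a culture of its own. The p-values therefore measure the spread between these libraries, which may be in part technical. Ins1, whose promoter drives the sorted reporter, was at 107 to 523 RPKM. Of the biliary markers, 8 of 10 (80% against 65.0% of all genes tested) lay above 1 RPKM. The defining markers Krt7, Krt19 and Epcam were at 466 to 802, 72.0 to 103 and 161 to 239 RPKM. Sox9 (0.61 to 1.2 RPKM) and Cftr (0.01 to 1.5 RPKM) passed in neither direction. Marker lists of other cells were mixed, beside 65.0% above and 26.1% below 1 RPKM over all genes tested. The endothelial list had 0 of 7 tested genes above 1 RPKM and 6 below, with Pecam1 at up to 0.16 RPKM. The immune list had 3 of 7 above (Cd68 at 126 to 167 RPKM, Csf1r at 5.14 to 17.0 RPKM and Cd14 at 3.93 to 8.82 RPKM) and 4 below, among them the defining marker Ptprc at up to 0.01 RPKM. The neural list had 4 of 8 above (Tubb3, Syp, Nefl and Mbp, at 24.5 to 197 RPKM) and 3 below, among them the defining marker Gfap at up to 0.67 RPKM, while Snap25, at 0.45 to 2.01 RPKM, passed in neither direction.

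The promoters of Ldha and Slc16a1, the pair that mature beta cells silence, are shown beside those of Ldhb and Slc16a3, their relatives in the same families. Each line gives the 250 bases before a transcription start, 5′ to 3′ on the strand of the gene, from RefSeq (GRCm38.p6), at chr7:46845554-46845803 (plus strand, Ldha), chr6:142507958-142508207 (minus strand, Ldhb), chr3:104638414-104638663 (plus strand, Slc16a1) and chr11:120948817-120949066 (plus strand, Slc16a3). Capitals mark letters of any of 4 motifs, searched on both strands: CACGTG, the E-box bound by Myc and Max, ACGTG, the core of the hypoxia response element, which every E-box contains on both strands, TGACGTCA, the cAMP response element, and GGGCGG, the GC box.
Ldha: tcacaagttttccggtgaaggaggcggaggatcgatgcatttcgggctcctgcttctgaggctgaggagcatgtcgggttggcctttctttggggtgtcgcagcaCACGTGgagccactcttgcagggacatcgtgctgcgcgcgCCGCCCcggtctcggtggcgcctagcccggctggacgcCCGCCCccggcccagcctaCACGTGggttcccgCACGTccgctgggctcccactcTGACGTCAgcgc
Ldhb: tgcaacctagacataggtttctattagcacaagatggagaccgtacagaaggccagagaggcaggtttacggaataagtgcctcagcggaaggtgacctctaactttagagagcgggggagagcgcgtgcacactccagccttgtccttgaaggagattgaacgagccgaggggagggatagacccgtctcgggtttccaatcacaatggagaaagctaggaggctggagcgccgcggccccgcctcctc
Slc16a1: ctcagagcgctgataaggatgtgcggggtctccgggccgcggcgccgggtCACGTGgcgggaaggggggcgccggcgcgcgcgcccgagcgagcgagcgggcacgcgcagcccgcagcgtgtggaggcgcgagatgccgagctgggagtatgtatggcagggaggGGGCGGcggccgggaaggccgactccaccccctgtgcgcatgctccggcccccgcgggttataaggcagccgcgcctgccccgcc
Slc16a3: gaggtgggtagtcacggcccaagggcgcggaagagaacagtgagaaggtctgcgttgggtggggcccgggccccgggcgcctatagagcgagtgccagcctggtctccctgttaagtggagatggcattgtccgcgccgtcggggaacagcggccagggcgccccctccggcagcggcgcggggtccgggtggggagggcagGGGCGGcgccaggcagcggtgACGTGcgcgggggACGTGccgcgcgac

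The Ldha window held 2 E-boxes, 1 cAMP response element and 2 GC boxes. Of its 5 hypoxia response core matches, 4 lay within the E-boxes and the other stood apart from them. In all 32851 promoter windows of this length, an E-box was present in 6.0%, the hypoxia response core in 16.6%, the cAMP response element in 1.5% and the GC box in 32.7%. The Slc16a1 window held 1 E-box, which gave its 2 hypoxia response core matches, and 1 GC box. The window of Slc16a3, a gene induced by hypoxia, held 2 hypoxia response cores outside any E-box and 1 GC box, and that of Ldhb held none of the 4 motifs. The table held 7 of the 8 members, all but Slc16a7, and its other windows were those of Ldhc (1 GC box), Ldhd (1 E-box with its 2 cores) and Slc16a8 (no match). GC content was 67.2% for the Ldha window, 76.4% for Slc16a1, 73.6% for Slc16a3 and 56.4% for Ldhb, against a median of 52.4% over all windows. These matches describe letters only, and no binding was measured.

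In the sorted cells Ldha was the most abundant lactate dehydrogenase transcript, and transcripts of the transporters were low. A level of 1 RPKM (read number divided by transcript length and by library depth) served as the reference for the test across genes. With limma and Benjamini-Hochberg adjustment over all genes, 7 of 8 members lay above 1 RPKM, against 65.0% of all genes tested, and 1 of 8, Ldhc, lay below it, against 26.1%. The median of the 8 means was 4.14 RPKM, under the median of 7.38 RPKM over all genes tested.

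**Figure D1:**
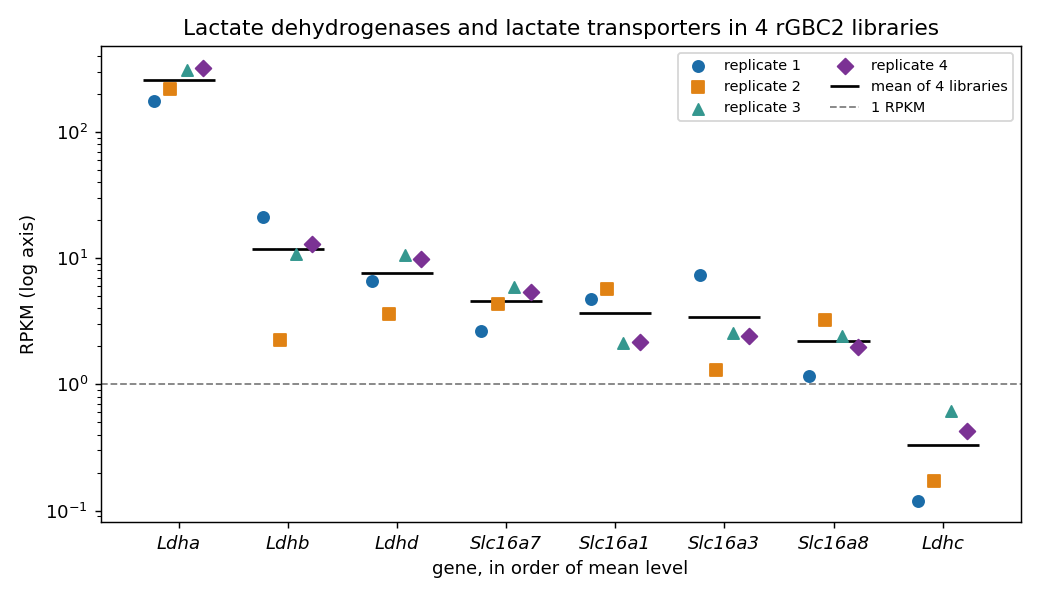
RPKM (vertical log axis) of each of the 8 genes in order of mean level (horizontal axis); symbols are the 4 rGBC2 libraries, black bars their means, the dashed line 1 RPKM. Ldha stands above 176 RPKM in every library, Ldhb spreads from 2.24 to 21.1 RPKM, and Ldhc alone lies under the line.

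Ldha, on chromosome 7 of mm9 from 54101173 to 54110997 (NM_010699), was at 176, 218, 309 and 324 RPKM in replicates 1 to 4. It was lower in replicates 1 and 2 than in replicates 3 and 4, and at the lowest it was still the gene of rank 364 of 20377 in its library. On the log2(RPKM + 1) scale it exceeded the level of 1 RPKM by 6.97 (SE 0.21, n = 4; limma, adjusted p = 4.48e-07). Its SD over libraries, 0.42 on that scale, was above that of 66.2% of the 11967 genes with a mean of at least 1 RPKM. Of the beta-cell markers, 7 of 9 (77.8% against 65.0% of all genes tested) lay above 1 RPKM. Nkx6-1 and Ucn3 lay below it (at most 0.14 RPKM). The beta-cell markers summed to 3481, 8971, 9081 and 10198 RPKM in replicates 1 to 4, mostly from Iapp and Ins2. Their sum had the same order of libraries as Ldha, but Slc2a2, the glucose transporter gene, ran the other way, with 154, 135, 94.9 and 96.7 RPKM. The biliary list without its highest member, Spp1, also had the order of Ldha, with sums of 1180, 1674, 1728 and 1764 RPKM. With Spp1, its sums were 1516, 3006, 2146 and 2235 RPKM, highest in replicate 2. The neural marker list (8 genes measured, led by Tubb3) summed to 258, 228, 494 and 488 RPKM. The part of the cell mixture in the Ldha values was not tested, and in these pooled libraries more transcript per cell and more cells with the transcript cannot be told apart.

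Ldhb, on chromosome 6 from 142438768 to 142456463 (NM_008492), was at 21.1, 2.24, 10.8 and 13.0 RPKM in replicates 1 to 4. Replicate 2 was the low library and replicate 1 the high one, a 9.42-fold range, with replicates 3 and 4 between them. Its SD of 1.19 on the log2(RPKM + 1) scale was above that of 98.3% of genes with a mean of at least 1 RPKM. The mean level lay above 1 RPKM (limma, adjusted p = 0.00344). The mesenchymal marker list was likewise highest in replicate 1 and lowest in replicate 2, with sums of 22.8, 3.71, 12.1 and 11.4 RPKM in replicates 1 to 4. Most of each sum came from Myh11, except in replicate 2. Myh11 is the smooth muscle myosin gene and was at 19.4, 1.60, 10.3 and 9.86 RPKM. The other 9 genes of the list summed to 3.35, 2.11, 1.76 and 1.58 RPKM in replicates 1 to 4, lowest in replicate 4. Of the 10 genes of the whole list, 9 were tested. Only 1 of these, Myh11, lay above 1 RPKM (11.1% against 65.0% of all genes tested), and 7 lay below (against 26.1%). Of the defining markers, Col1a1 was at 0.47 to 1.34 RPKM, while Col3a1 had 0.01 RPKM in replicate 4 and a listed 0 elsewhere. Acta2, also on the list, had 0.09 RPKM in replicate 2 and a listed 0 elsewhere, and Des was at 0.14 to 0.50 RPKM. Whether cells with Myh11 contributed to Ldhb was not tested.

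Ldha exceeded Ldhb in 4 of 4 libraries, by 4.59 ± 1.26 (SD, n = 4) on the log2(RPKM + 1) scale, with an exact sign-flip permutation p = 0.125, the smallest that 4 libraries allow. The ratio of their RPKM was 8.35, 97.4, 28.7 and 24.9 in replicates 1 to 4, so its spread followed Ldhb more than Ldha. Of the summed RPKM of both subunits, Ldha made up 95.3% ± 4.16 (SD, n = 4), from 89.3% in replicate 1 to 98.98% in replicate 2. Both genes share sequence with other annotated genes. Of the stretches of 50 bases along the reference transcript, 19.1% for Ldha and 27.0% for Ldhb also occur in transcripts of other genes, such as Ldha-ps2 and Gm5514, so reads from these stretches are uncertain.

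Ldhd, which encodes the mitochondrial enzyme that oxidises D-lactate, lies on chromosome 8 from 114150170 to 114154222 (NM_027570) and was at 6.62, 3.60, 10.6 and 9.86 RPKM in replicates 1 to 4. Both of replicates 3 and 4 were higher than both of the others, and the mean lay above 1 RPKM (limma, adjusted p = 0.000594). Ldhd and Ldhb stood close together, with a difference of Ldhb from Ldhd of 0.35 ± 0.87 (SD, n = 4), smaller than its SD and of the other sign (-0.04) without replicate 1. Ldhc, the sperm form of the enzyme, is the neighbour of Ldha on chromosome 7, from 54116632 to 54133512 (NM_013580). It was at 0.12, 0.17, 0.61 and 0.43 RPKM, below 1 RPKM (limma, adjusted p = 0.00152). The call was lost when values were rescaled to TPM (limma, adjusted p = 0.0530). TPM gives each library the same sum, and here it raised the median of all genes by 0.81 on the log2(RPKM + 1) scale. Scaling the libraries to equal medians kept the call (limma, adjusted p = 0.00231). The RPKM values of Ldhc correspond to an estimated 3.97, 5.17, 20.6 and 19.4 reads. On its transcript, 3 reads would give 0.0666 to 0.0986 RPKM. Ldhc shared none of its 50-base stretches with other genes. Of the 9 germ-cell markers, 4 were listed at 0 in every library, including the defining marker Tnp1, while Prm1 had 0.24 RPKM in replicate 1 with a listed 0 elsewhere and Ddx4 was at 0.20 to 0.87 RPKM. Summed, the germ-cell list gave 3.26, 3.34, 1.73 and 1.69 RPKM in replicates 1 to 4, with Gapdhs as its highest member (1.31 to 2.58 RPKM), and so was lower in the libraries in which Ldhc was higher. Of the more distant relatives, Ldhal6b lay below 1 RPKM (limma, adjusted p = 0.00613) at 0.06 to 0.67 RPKM, and Uevld, at 1.10 to 1.86 RPKM, passed in neither direction (limma, adjusted p = 0.0514).

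The transporters lay within a narrow band. Slc16a7, which encodes MCT2, a carrier of high affinity known from neurons and testis, had the highest mean. It lies on chromosome 10 from 124664540 to 124765591 (NM_011391) and was at 2.66, 4.35, 5.95 and 5.42 RPKM in replicates 1 to 4, above 1 RPKM (limma, adjusted p = 0.00104). Slc16a1, on chromosome 3 from 104442590 to 104462385 (NM_009196), was at 4.78, 5.66, 2.13 and 2.15 RPKM, above 1 RPKM as well (limma, adjusted p = 0.00680). Its direction between libraries was the opposite of that of Slc16a7 and Ldha, with both of replicates 3 and 4 below both of replicates 1 and 2. The transcripts of Slc16a1 and Slc16a7 have nearly equal GC content, 42.9% and 43.0%, and that of Ldha has 51.9%. Their lengths differ, with 4426 bases for Slc16a1, 2419 for Slc16a7 and 1588 for Ldha. The part of base composition or transcript length in these differences was not tested.

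Slc16a3, which encodes MCT4, the lactate exporter of strongly glycolytic cells, lies on chromosome 11 from 120810380 to 120820314 (NM_001038654) and was at 7.41, 1.31, 2.57 and 2.43 RPKM in replicates 1 to 4. Replicate 1 alone stood high. Without it the mean fell from 3.43 to 2.10 RPKM, and the mean over all libraries lay above 1 RPKM (limma, adjusted p = 0.0304), but not without replicate 3 (adjusted p = 0.0593) or replicate 4 (adjusted p = 0.0528), nor with genes at 0 in every library kept in the fit (adjusted p = 0.0614). Slc16a3, like Ldhb and Myh11, was highest in replicate 1 and lowest in replicate 2. Slc16a8, which encodes MCT3, known from the retinal pigment epithelium and choroid plexus, lies on chromosome 15 from 79081445 to 79085178 (NM_020516) and was at 1.17, 3.26, 2.42 and 1.99 RPKM. It lay above 1 RPKM (limma, adjusted p = 0.0215), a call lost without replicate 2, 3 or 4 (adjusted p = 0.0582, 0.0739 and 0.0553). Rpe65, the defining marker of the retinal pigment epithelium, was listed at 0 in every library, as were 3 of 8 genes of that list, and Lrat was its highest member at 5.68 to 8.29 RPKM. The whole list summed to 7.14, 8.63, 9.48 and 8.07 RPKM in replicates 1 to 4. With replicates 3 and 4 averaged and counted as 1 library, an alternative chosen after the data were seen, neither Slc16a3 (adjusted p = 0.0601) nor Slc16a8 (adjusted p = 0.0651) passed.

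Neighbours in the order of the transporters by mean were not separated by their spread. The difference of Slc16a7 from Slc16a1 was 0.30 ± 0.92 on the log2(RPKM + 1) scale (SD, n = 4), that of Slc16a1 from Slc16a3 0.17 ± 0.92, and that of Slc16a3 from Slc16a8 0.33 ± 1.18. Each of these is smaller than its SD, and the last 2 changed sign when 1 replicate was left out (-0.28 for Slc16a1 from Slc16a3 without replicate 2, -0.21 for Slc16a3 from Slc16a8 without replicate 1). The highest and the lowest were further apart, with a difference of Slc16a7 from Slc16a8 of 0.80 ± 0.35, positive in 4 of 4 libraries (exact permutation p = 0.125). Ldhd exceeded Slc16a7 by 0.59 ± 0.55, in 3 of 4 libraries, and Slc16a8 exceeded Ldhc by 1.24 ± 0.42, in 4 of 4. The 28 pairs of members and 5 further differences made a family of 33, in which exact sign-flip permutation p-values started at 0.125 and at 0.206 after adjustment, so that no pair could pass. Among the member pairs, 16 of 28 had the same direction in every library. They included all 7 pairs with Ldha. Ldha exceeded Slc16a1, the other gene that mature beta cells silence, by 5.83 ± 0.97, a 56.7-fold ratio of RPKM + 1. The steadiest difference was that of Ldha from Slc16a7, 5.52 ± 0.13, which lay between 5.36 and 5.66 in the 4 libraries.

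Summed, the 4 transporters gave 16.0, 14.6, 13.1 and 12.0 RPKM in replicates 1 to 4, or 13.9 ± 1.76 RPKM (SD, n = 4), while their shares of that sum moved further. Slc16a3 made up 46.3% in replicate 1 and 8.98% in replicate 2. The share of Slc16a1 was 29.8%, 38.8%, 16.3% and 17.9% in replicates 1 to 4. Slc16a7 held 16.6%, 29.8%, 45.5% and 45.2%. Each library thus had its highest transporter: Slc16a3 in replicate 1, Slc16a1 in replicate 2 and Slc16a7 in replicates 3 and 4.

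**Figure D2:**
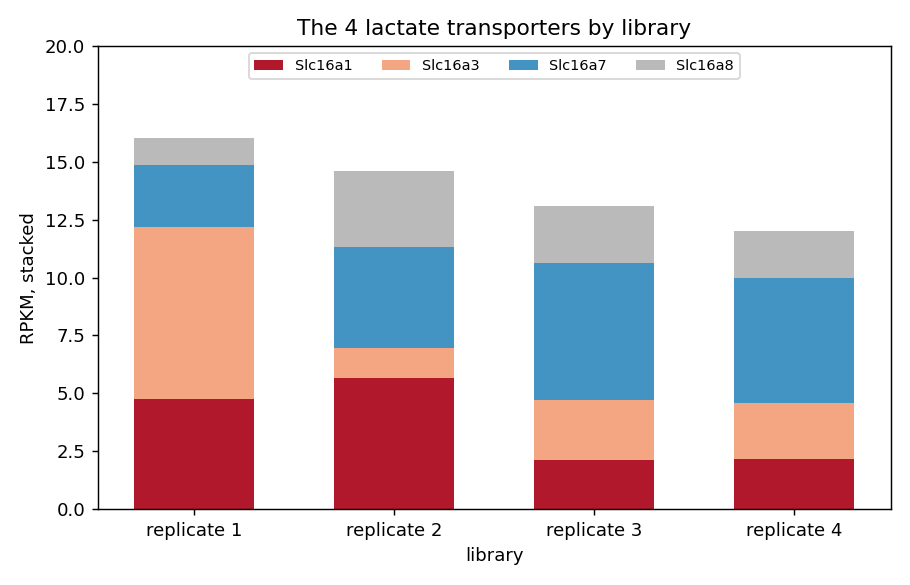
RPKM of Slc16a1, Slc16a3, Slc16a7 and Slc16a8 (stacked bars, vertical axis from 0) in each rGBC2 library (horizontal axis). The totals run from 12.0 to 16.0 RPKM, and the segment of Slc16a3 is 7.41 RPKM in replicate 1 and 1.31 RPKM in replicate 2.

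**Figure D3:**
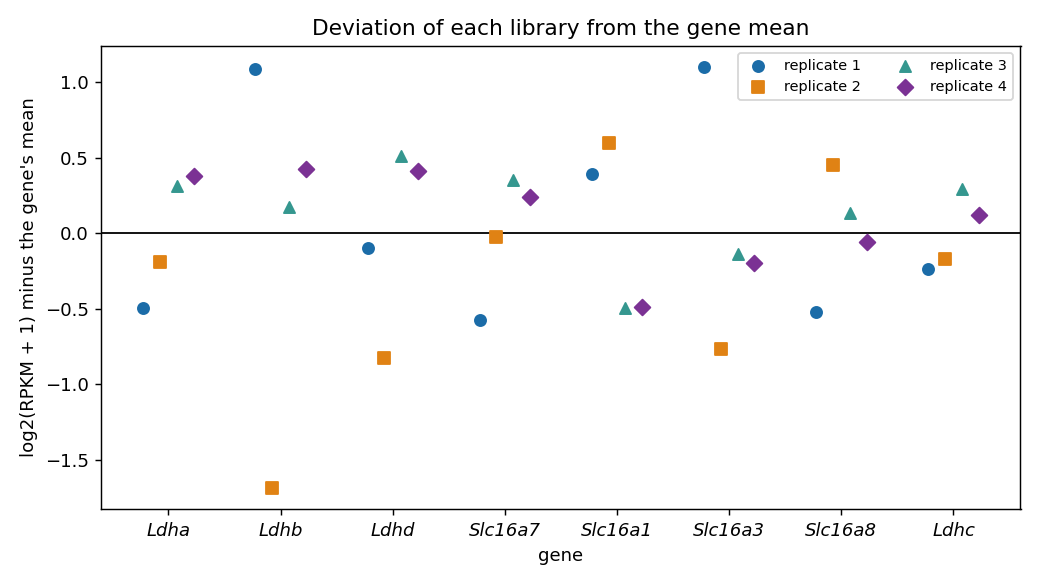
Deviation of each library from the gene's mean on the log2(RPKM + 1) scale (vertical axis) for the 8 genes (horizontal axis); symbols are the 4 libraries. Replicates 3 and 4 sit above the mean for Ldha, Ldhb, Ldhd, Slc16a7 and Ldhc and below it for Slc16a1 and Slc16a3. Replicate 2 is the lowest library for Ldhb, Ldhd and Slc16a3.

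Patterns over the 4 libraries were compared with those of 11954 other genes by the root-mean-square difference of centred log2(RPKM + 1) values. Nearest to Ldha were Creb3, a transcription factor anchored in the endoplasmic reticulum, Smpd1, the lysosomal sphingomyelinase, and Gng4, a G protein subunit, at 0.0143, 0.0150 and 0.0210, and 2.1% of genes came within 0.1. Ldhb had fewer neighbours, with Armcx2, Tmem30b and Myh11 nearest at 0.0902, 0.109 and 0.129 and 0.01% of genes within 0.1. Nearest to Ldhd were Aldh4a1, a mitochondrial enzyme of proline breakdown, Kif12 and Tmem104, at 0.0292, 0.0344 and 0.0367. Slc16a7 was nearest to Krt81, a keratin, Fam155a and Tax1bp3, at 0.0238, 0.0246 and 0.0263. With only 4 libraries these are descriptions of likeness.

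Transcripts of the transporters' partner proteins were far more abundant than those of the transporters. Bsg was at 578, 1053, 1111 and 1163 RPKM in replicates 1 to 4, Nptn, neuroplastin, a relative of basigin, at 318, 278, 325 and 348 RPKM, and Emb at 268, 249, 173 and 183 RPKM. Each passed as above 1 RPKM (limma, adjusted p = 6.14e-07 for Bsg, 2.29e-07 for Nptn and 2.73e-07 for Emb). Slc16a1 was below Bsg in 4 of 4 libraries, with a log2(RPKM + 1) difference of -7.74 ± 0.92 (SD, n = 4; exact permutation p = 0.125). The RPKM of Bsg was 36.1 to 97.0 times the summed RPKM of Slc16a1, Slc16a3, Slc16a7 and Slc16a8. Basigin has other partners, so its level does not measure transport.

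Of 10 other SLC16 genes, 6 were called above 1 RPKM (60% against 65.0% of all genes tested). Another 1 was called below it, and the median of the list was 2.82 RPKM. Slc16a12, a creatine carrier, was highest at 45.2, 72.8, 43.1 and 36.7 RPKM in replicates 1 to 4 and stood at 9.45 to 20.2 times the RPKM of Slc16a1. Slc16a6 followed at 10.3 to 28.03 RPKM and Slc16a10, a carrier of aromatic amino acids, at 12.6 to 16.1 RPKM. Slc16a11 was lowest, at 0.35 to 0.66 RPKM, below 1 RPKM (limma, adjusted p = 0.00231). That call was lost when values were rescaled to TPM (limma, adjusted p = 0.97). Slc16a4, at 1.55, 1.25, 0.06 and 0.08 RPKM in replicates 1 to 4, passed in neither direction (limma, adjusted p = 0.273). Of the sodium-coupled lactate carriers, Slc5a8 was at 0.07 to 0.57 RPKM, below 1 RPKM (limma, adjusted p = 0.000704), and Slc5a12 was listed at 0 in every library.

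Upstream of lactate dehydrogenase, 18 of 21 glycolytic genes lay above 1 RPKM (85.7% against 65.0% of all genes tested). Another 2 lay below it and 1 passed in neither direction. The median of the list was 29.3 RPKM, against 7.38 RPKM over all genes tested. Pkm, the pyruvate kinase that yields the substrate of Ldha, was highest at 531, 684, 1136 and 1164 RPKM in replicates 1 to 4, followed by Aldoa, an aldolase, at 356 to 809 RPKM and Tpi1 at 142 to 208 RPKM. Pkm and Aldoa exceeded Ldha in 4 of 4 libraries, and Tpi1 in none. Ldha stood above the median of the list in 4 of 4 libraries, by 3.05 ± 0.37 (SD, n = 4; exact sign-flip permutation p = 0.125). Hk3 was lowest and did not exceed 0.03 RPKM in any library. Gapdh, next lowest, was at 0.20 RPKM in replicate 1 and at 0 to 0.04 RPKM in the others. Of its 50-base stretches, 82.5% also occur in transcripts of 222 other genes, against 68.0% for Pgk1 (7.57 ± 0.858 RPKM; SD, n = 4), 72.2% for Eno1 (73.8 ± 22.7 RPKM), 34.4% for Pkm and none for Hk1. The part of shared sequence in these values was not tested.

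**Figure D4:**
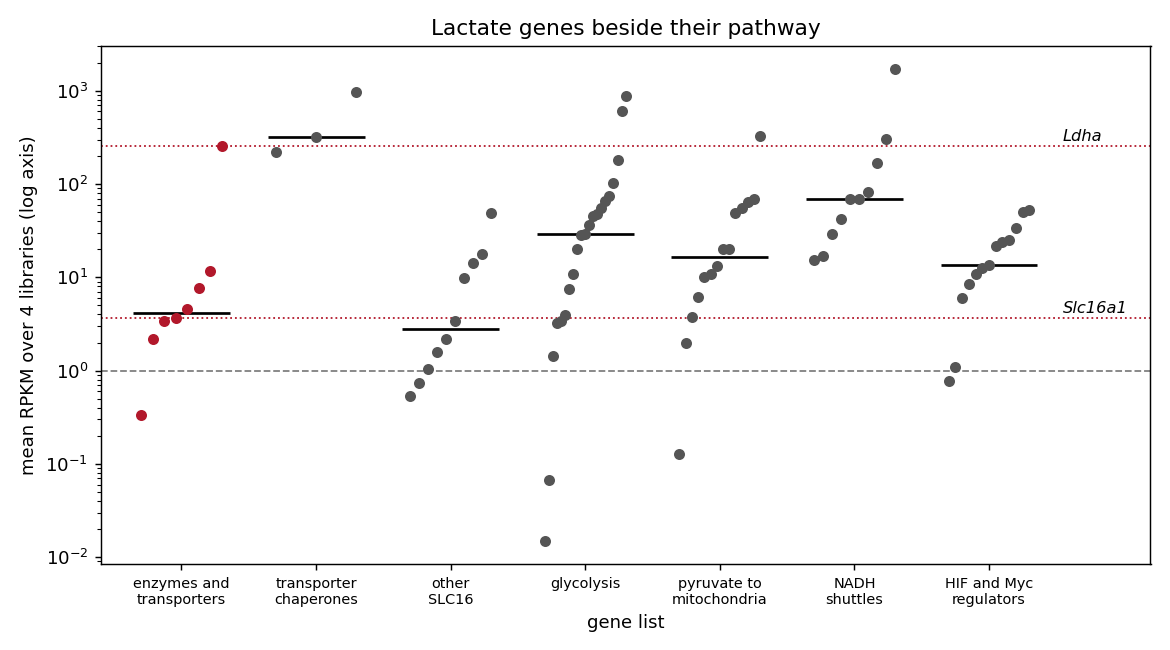
Mean RPKM over 4 libraries (vertical log axis) of each gene, by gene list (horizontal axis); red points are the 8 lactate genes, grey points the other lists, black bars list medians, dotted lines Ldha and Slc16a1, the dashed line 1 RPKM. The chaperones have a median of 317 RPKM and glycolysis 29.3 RPKM, while Slc16a1 lies at 3.68 RPKM.

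The competing route, pyruvate entry into mitochondria, was transcribed as well. Of 14 genes, 13 (92.9% against 65.0% of all genes tested) lay above 1 RPKM and 1 below, with a median of 16.7 RPKM. Mpc1, a subunit of the mitochondrial pyruvate carrier, was at 288, 423, 278 and 326 RPKM in replicates 1 to 4, while its partner Mpc2 was at 17.7 to 21.8 RPKM. Ldha and Mpc1 did not separate, with a difference of -0.38 ± 0.53 (SD, n = 4), and Ldha was the higher in 1 of 4 libraries. Of the stretches of Mpc1, 44.2% are shared with other transcripts. Pdha1, the catalytic subunit of pyruvate dehydrogenase, was at 45.2 to 67.1 RPKM and below Ldha in 4 of 4 libraries, by 2.17 ± 0.69 (SD, n = 4; exact sign-flip permutation p = 0.125). Pdhb was at 60.6 to 75.2 RPKM and Pcx, pyruvate carboxylase, at 37.6 to 87.0 RPKM. At the low end, Pdk4, a kinase that inhibits pyruvate dehydrogenase, was at 0.46 RPKM in replicate 1 and at 0 to 0.04 RPKM in the others, and Pdp2, a phosphatase that activates it, at 1.61 to 2.09 RPKM. Slc16a1 was below Mpc1 in 4 of 4 libraries, with a difference of -6.20 ± 0.48 (SD, n = 4).

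Shuttles that return glycolytic NADH to mitochondria are the other outlet beside lactate dehydrogenase. Of their genes, 10 of 10 lay above 1 RPKM (100% against 65.0% of all genes tested), with a median of 69.6 RPKM. Mdh1, cytosolic malate dehydrogenase, was at 1089, 1500, 1933 and 2245 RPKM in replicates 1 to 4. It exceeded Ldha in 4 of 4 libraries, as did Mdh2, its mitochondrial counterpart, at 213 to 396 RPKM. Gpd2, the mitochondrial glycerol phosphate dehydrogenase, was at 140 to 196 RPKM. Lowest were Slc25a10 at 11.9 to 21.3 RPKM and Slc25a13 at 11.6 to 26.4 RPKM.

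Regulators known to act on Ldha and the transporter genes were present. Of 13 HIF and Myc pathway genes, 11 (84.6% against 65.0% of all genes tested) were called above 1 RPKM. None was called below it, against 26.1% of all genes tested. The median of the list was 13.5 RPKM, against 7.38 RPKM over all genes tested. Highest were Esrra, an orphan nuclear receptor of oxidative metabolism, at 43.3 to 64.2 RPKM, Egln2, an oxygen-sensing prolyl hydroxylase, at 40.9 to 55.6 RPKM and Hif1an at 24.7 to 39.8 RPKM. Hif1a, the oxygen-regulated subunit, was at 19.1, 18.2, 9.17 and 7.53 RPKM in replicates 1 to 4. Of the 13 genes, 6 were lower in both of replicates 3 and 4 than in both others, and 3 were higher. Over all genes tested these shares were 38.5% and 24.2%. Mycn at 0.97 to 1.14 RPKM and Ppargc1a at 0.42 to 1.45 RPKM were lowest and passed in neither direction. Of 12 further HIF target genes 12 lay above 1 RPKM (100% against 65.0% of all genes tested), with a median of 12.6 RPKM. They were led by Ddit4 at 63.5 to 85.9 RPKM, Ero1l at 28.8 to 76.2 RPKM and Vegfa at 22.9 to 45.9 RPKM. At the low end Adm was at 12.4, 2.48, 3.55 and 3.64 RPKM in replicates 1 to 4, or 3.22 RPKM on average without replicate 1, and Ankrd37 at 3.26 to 4.72 RPKM. In both of replicates 3 and 4, 6 of 12 targets were lower than in both of the others, among them Vegfa and Ero1l. Another 2 were higher (Slc2a1 and Ankrd37), against 38.5% lower and 24.2% higher among all genes tested. Whether HIF or Myc acted on Ldha in these cells was not tested.

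Of 16 other genes reported as silenced in beta cells, 11 lay above 1 RPKM, 3 below and 2 in neither direction, with a median of 6.37 RPKM. The share above, 68.8%, was near that of all genes tested. The highest were Cat, Mgst1 and Oat, a mitochondrial aminotransferase, of which Oat, at 122, 146, 196 and 226 RPKM in replicates 1 to 4, was below Ldha in each. Cat, catalase, at 296, 283, 109 and 120 RPKM, exceeded Ldha in replicates 1 and 2 only, and so did Mgst1, a glutathione transferase of membranes, at 180, 250, 129 and 153 RPKM. Itih5 (0.01 to 0.16 RPKM) and Igfbp4 (0.29 to 0.50 RPKM) were lowest. In both of replicates 3 and 4, 9 of 16 genes were lower than in both others, against 38.5% of all genes tested. Another 3 of the 16 were higher, against 24.2% of all genes tested. Slc16a1 was likewise lower in these libraries and Ldha higher.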

How the data were processed

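The authors deposited 1 table of RPKM values, rounded to 2 decimals, with 1 RefSeq transcript per gene symbol. Per the submitters' processing notes, CASAVA 1.8.2, Bowtie and build mm9 were used. The counting program, its strand setting and the use of multiply matching reads were not given in the sources used here. No member's span overlaps that of another gene of the table. The 6 per-sample columns that match no sample of the series were not used.

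Levels were tested against 1 RPKM on log2(RPKM + 1), which understates differences of low genes, with limma 3.58.1 in R 4.3.3 (mean-variance trend, two-sided, Benjamini-Hochberg over 16919 genes, leaving out those listed at 0 throughout, threshold 0.05). The script was tested on simulated data. Differences within libraries used a two-sided exact sign-flip permutation test (SciPy 1.17.1). Depth was estimated from the smallest steps of values of 993 olfactory receptor genes, and read numbers and floors of 3 reads cover counting error only. Transcript lengths, GC content and shared sequence came from GENCODE M21 (GRCm38), matched by RefSeq identifier for 98.1% of genes, and no coordinate was converted.

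Named in the text are all members, the 3 highest and 2 lowest genes of each pathway list, all genes of lists of at most 3, partner genes of the differences, the 3 nearest patterns of the 4 highest members, and the leading or defining markers. Eif2s3y, Ddx3y, Kdm5d, Pgk1, Eno1, Hk1, Mpc2, Hif1a, Slc2a1 and several single markers were named outside this rule, after their values were seen. Members and lists were chosen with earlier results of these data known. Alternatives covered the pseudocount, filters, scaling, the trend, each library left out, and replicates 3 and 4 averaged.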

Additional observations from a re-analysis of the deposited data

Results flagged for a closer look

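In groups of 4 independent values, chance places 1 value this far from the others in about 1 of 20 groups. Checked were 47 named genes, 5 shares and 33 differences. The number after each flagged item is the gap of the farthest library to its nearest neighbour over the whole range. The libraries were not evenly spaced, because the most alike pair lay closer together than any other pair. Every flagged value came from a library outside that pair, and the differences reuse the same genes. The stated rate therefore does not apply directly here, and the items are descriptions only.

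Replicate 1 stood apart in 4 genes by a high value: Slc25a13, a carrier of the malate-aspartate shuttle (26.4 RPKM against 11.6 to 12.3, ratio 0.948), Itih5 (0.16 RPKM against 0.01 to 0.02, ratio 0.933), Pdk4 (0.46 RPKM against 0 to 0.04, ratio 0.913) and Adm (12.4 RPKM against 2.48 to 3.64, ratio 0.882). Pdp2 was low in replicate 2 (1.61 RPKM against 2.04 to 2.09, ratio 0.896).

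Differences of log2(RPKM + 1) set replicate 1 apart for Ldha from Slc16a3 (4.40 against 6.44 to 6.57, ratio 0.941), Ldha from the glycolysis median (2.49 against 3.19 to 3.26, ratio 0.910), Slc16a7 from Slc16a3 (-1.20 against 0.90 to 1.21, ratio 0.873) and Slc16a3 from Ldhc (2.91 against 0.98 to 1.26, ratio 0.854). Replicate 2 stood apart for Ldhd from Slc16a8 (0.11 against 1.77 to 1.86, ratio 0.946), Ldhb from Slc16a1 (-1.04 against 1.91 to 2.15, ratio 0.925), Slc16a8 from Ldhc (1.86 against 0.95 to 1.09, ratio 0.854) and Ldhd from Ldhc (1.98 against 2.77 to 2.93, ratio 0.833).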

How the results depend on the processing

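Of the recomputed member levels, 79 kept direction and call, and 9 kept direction but no longer passed. These were Slc16a3 without replicate 3 or 4, with replicates 3 and 4 averaged and with no filter on genes at 0 (adjusted p = 0.0614), Slc16a8 without replicate 2, 3 or 4 and with replicates 3 and 4 averaged, and Ldhc after TPM scaling, that is to 1 summed value per library (limma, adjusted p = 0.0530). That scaling raised the median of all genes by 0.81 on the log2(RPKM + 1) scale and left 0 members below 1 RPKM. It turned Ppargc1a (0.24) and Slc16a4 (0.042) to the other side of 1 RPKM, neither passing. With it, Slc16a11 (limma, adjusted p = 0.97) and Igfbp4 (limma, adjusted p = 0.143) no longer passed as below 1 RPKM. Mycn passed as above it (limma, adjusted p = 0.00689). Leaving out 1 replicate, 5 to 7 members lay above 1 RPKM and 0 to 1 HIF and Myc pathway genes below it. The share of Ldha ranged from 94.0% to 97.3% and that of Slc16a1 among the transporters from 21.4% to 28.9%. Of 33 differences 3 changed direction when 1 replicate was left out: Ldhb from Ldhd (-0.04 to 0.64), Slc16a1 from Slc16a3 (-0.28 to 0.41) and Slc16a3 from Slc16a8 (-0.21 to 0.74), and the cause was not tested. Of all genes, 4423 lay below 1 RPKM, against 7777 with genes at 0 in every library kept and 1889 among genes with a mean of at least 0.1 RPKM, sets that differ in how many low genes they hold. No paired analysis was possible because the labels give 1 group, so no replicate number is shared between groups (the differences above are between genes of 1 library). Depth limits Ldhc most.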
